A study of Mus musculus with 10 samples.

Results

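The 6 genes described here make, package and sense the transmitter GABA: Gad1 and Gad2 for its synthesis, Slc32a1 for its loading into vesicles, Gabrb1 for the GABA-A receptor, and Gabbr1 and Gabbr2 for the GABA-B receptor. They were found by symbol among the 29527 genes of the deposited table, and each had 1 row. They were chosen by their log2 values in these samples and the differences between genotypes, which were already known. The values of the 6 genes are therefore given as a description and without p-values. The calls among them are counted only beside the shares of all genes. Bulk RNA was measured in the dissected intermediate lobe (IL) of the pituitary from 10 mice aged between 2 and 3 months, with 1 library per mouse: 4 wild-type (WT), 3 p27-/- and 3 p27-/-;Sox2+/-. The p27-/- mice lack both copies of Cdkn1b, which encodes the cyclin-dependent kinase inhibitor P27, in every tissue, as a model of loss in the whole animal rather than in the IL alone. The p27-/-;Sox2+/- mice carry the same deletion and in addition have only 1 working copy of Sox2. Both mutant groups thus share the loss of P27. Sox2 encodes a transcription factor of pituitary stem cells, and melanotrophs, the endocrine cells of the IL, express it at lower levels. The study used a GFP knock-in and a conditional allele of Sox2, and its methods do not tie either to these mice. Mice of both sexes on mixed backgrounds were used, and the controls were littermates or came from comparable crosses.

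GABA is made from glutamate by glutamate decarboxylase, which exists as GAD67, encoded by Gad1, and GAD65, encoded by Gad2. In nerve terminals the vesicular transporter VGAT, encoded by Slc32a1, loads it into synaptic vesicles. GABA-A receptors are chloride channels built from alpha, beta and other subunits, whereas GABA-B receptors are G protein-coupled and need both GABBR1, which binds GABA, and GABBR2, which carries it to the surface and couples it to the G protein. The melanotrophs that fill the IL are endocrine cells that secrete peptides cut from POMC, and they are known to receive GABA together with dopamine from hypothalamic fibres and to carry both kinds of GABA receptor.

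The values are log2 normalised counts. Genes with few reads are pulled towards their mean over the samples, and the depth of each library is unknown from the table, so the number of mice limits the precision. Of the 6 genes, 4 reached the minimum for testing, a mean of 10 on the linear scale, which is 3.32 on the log2 scale, and Gad1 and Slc32a1 stayed below it. Cdkn1b lay between 8.39 and 8.85 in WT, between 8.04 and 8.27 in p27-/- and between 7.73 and 8.10 in p27-/-;Sox2+/- samples, below WT but still detected, and which part of the gene these reads cover was not checked. Sox2 lay between 7.34 and 7.75 in WT, between 7.08 and 7.45 in p27-/- and between 6.88 and 7.07 in p27-/-;Sox2+/- samples. Of 7 melanotroph markers, 6 were at or above 8.39 in every library, with Pomc at or above 18 and Pax7, the selector of melanotroph identity, between 11.45 and 11.97, while Neurod1 lay between 4.3 and 5.13. The 8 posterior lobe markers, each taken as the log2 difference from its mean over all samples, averaged between -0.59 and 0.78 in the WT libraries, and WT replicate 2 had both the lowest posterior lobe value of that group and the highest anterior lobe value, 1.48. No value tells fewer cells of a type from less RNA per cell in such bulk samples.

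For each of the 6 genes, RefSeq's GRCm38.p6 annotation, the build of the deposited table, gives windows of 250 bases before and 50 bases after an annotated start. In Gad1, Gad2 and Slc32a1 the start used lies inside the gene span given below, not at its first base. The windows of these synthesis and packaging genes are printed, since their levels lay furthest apart. Capitals mark each match to 1 of 3 short motifs on either strand. The motifs were ACAANG, which SOX factors bind, TTTCCCGC, used by E2F factors, and TATAAA. They were found in 41.2%, 1.07% and 13.6% of the 32851 windows of that annotation, in this order.
Gad2, chr2:22622077-22622376, plus strand: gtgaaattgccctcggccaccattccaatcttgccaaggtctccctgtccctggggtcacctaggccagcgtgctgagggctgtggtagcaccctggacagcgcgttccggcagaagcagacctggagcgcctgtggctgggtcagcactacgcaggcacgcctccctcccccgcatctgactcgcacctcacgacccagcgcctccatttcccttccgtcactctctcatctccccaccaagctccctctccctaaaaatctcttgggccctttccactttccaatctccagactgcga
Gad1, chr2:70561879-70562178, plus strand: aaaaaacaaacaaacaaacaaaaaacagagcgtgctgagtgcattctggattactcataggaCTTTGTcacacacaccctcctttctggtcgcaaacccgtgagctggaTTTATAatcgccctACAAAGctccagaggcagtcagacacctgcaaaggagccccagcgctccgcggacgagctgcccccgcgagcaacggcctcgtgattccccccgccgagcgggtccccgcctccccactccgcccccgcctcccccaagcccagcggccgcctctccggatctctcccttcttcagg
Slc32a1, chr2:158610508-158610807, plus strand: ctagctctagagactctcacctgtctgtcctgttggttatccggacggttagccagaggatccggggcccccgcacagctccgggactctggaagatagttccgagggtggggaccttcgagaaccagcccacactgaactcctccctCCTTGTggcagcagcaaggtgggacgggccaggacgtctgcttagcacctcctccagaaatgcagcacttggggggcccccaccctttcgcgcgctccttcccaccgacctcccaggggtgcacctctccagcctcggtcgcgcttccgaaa
The Gad2 window held no match. The Gad1 window held 2 matches to the SOX-type motif, starting 188 and 127 bases before the annotated start used for the window. It also held 1 to TATAAA on the opposite strand, 141 bases before that start. The Slc32a1 window held 1 SOX-type match, 102 bases before the start used for it. No matches overlapped each other. The observed over expected number of CpG dinucleotides was 0.54 in the Gad2 window, 0.85 in the Gad1 window and 0.57 in the Slc32a1 window, against a median of 0.38 over all windows. The window of Gabbr2, on the minus strand of chromosome 4, had the highest ratio of the set, 0.96, and a GC content of 80.3%.

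Of the 2 synthesis genes, the IL held abundant Gad2 RNA and very little Gad1 RNA. Gad2 (ENSMUSG00000026787, chromosome 2 from 22621015 to 22693877) had log2 values of 11.33, 11.10, 10.67 and 10.73 in the 4 WT samples. In the 3 p27-/- samples it stood at 11.68, 11.55 and 12.07, and in the 3 p27-/-;Sox2+/- samples at 10.20, 10.98 and 10.57. Every p27-/- sample was above every sample of the other genotypes, while the WT and p27-/-;Sox2+/- samples overlapped. The WT mean was 10.96 ± 0.31 (SD, n = 4). The p27-/- mean was 11.77 ± 0.27 (SD, n = 3), and that of p27-/-;Sox2+/- IL was 10.58 ± 0.39 (SD, n = 3). The log2 difference between p27-/- and WT was 0.81 with a standard error of 0.19, which is 1.75-fold. Between p27-/-;Sox2+/- and WT it was -0.38 with a standard error of 0.19, and between the mutants it was -1.19 with a standard error of 0.20, so that Gad2 in p27-/-;Sox2+/- IL was at 0.439 of its p27-/- level. When each sample was left out in turn, these differences ranged from 0.66 to 0.93, from -0.58 to -0.19 and from -1.39 to -0.99. Xist, an RNA of females, was at or above 14.32 in WT replicates 1 and 2 and p27-/- replicates 1 and 3. So it was in p27-/-;Sox2+/- replicates 2 and 3, while the other samples were at or below 9.29. Within each genotype, the samples with high Xist had the higher Gad2 values. With Xist as a covariate the Gad2 differences were 0.73, -0.46 and -1.19, and the part of sex was not tested. In WT, 96.4% of the tested genes had a lower mean log2 value than Gad2. A miRNA gene, Mir3967, lies within Gad2, and its reads, if any, were not separated here.

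Gad1 (ENSMUSG00000070880, chromosome 2 from 70561303 to 70602014) had log2 values of 1.89, 1.88, 2.12 and 2.46 in WT, 1.87, 1.96 and 1.88 in p27-/- and 1.87, 1.87 and 1.98 in p27-/-;Sox2+/- samples. The 3 genotypes overlapped, and WT replicate 4 had the highest value. Since the reads were counted without regard to strand, Gad1 cannot be separated from the antisense gene Gad1os that overlaps it. Among all 29527 genes, 32.4% had a lower mean.

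Slc32a1 (ENSMUSG00000037771, chromosome 2 from 158607260 to 158615747) was lower still. Its log2 values were 0.47, 0.48, 0.47 and 0.51 in WT, 0.44 in each of the 3 p27-/- samples, and 0.47, 0.46 and 0.51 in p27-/-;Sox2+/- samples. Although the p27-/- values were the lowest, they lay very close to the others, at a level where the deposited values are pulled together, and no difference was read from them. With Gad1 and Slc32a1 at these levels, Gad2 was the only gene of the 3 that make and package GABA whose RNA was well above the minimum for testing. Reads of Slc32a1 cannot be told from those of the overlapping gene Gm14204.

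**Figure D1:**
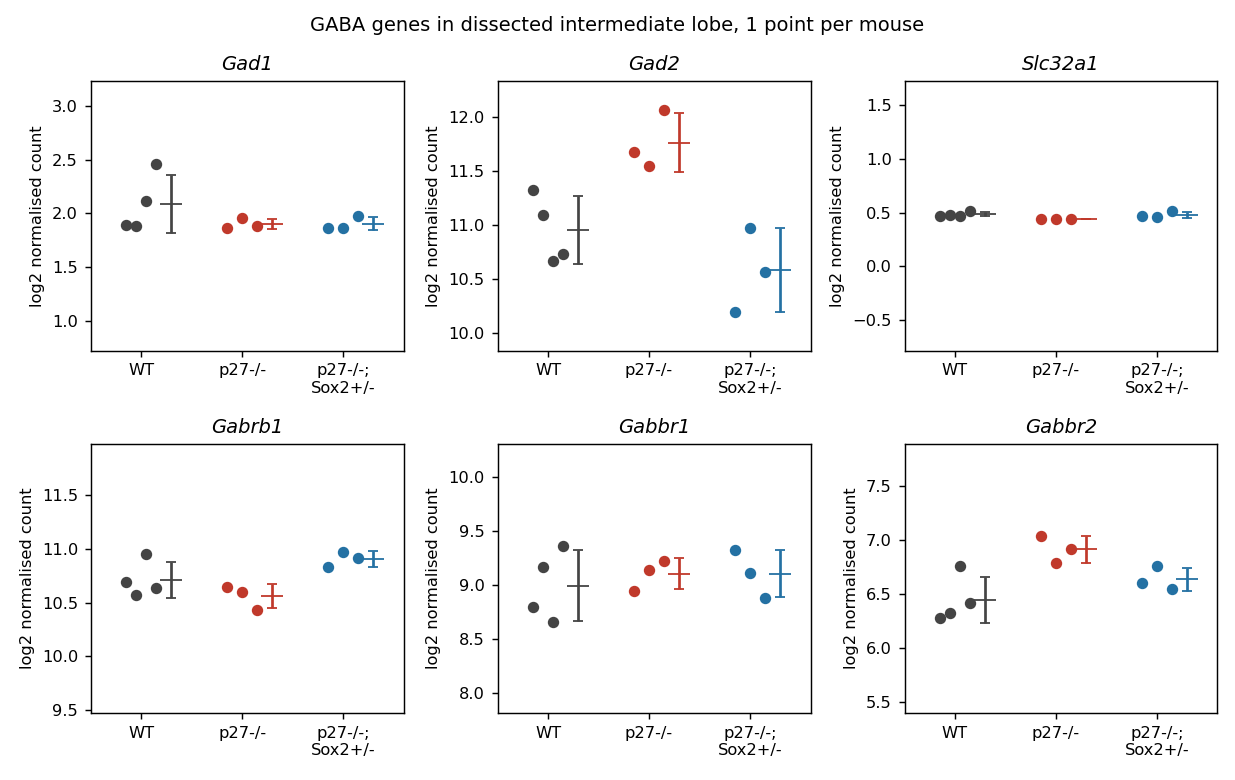
Log2 normalised counts of the 6 genes in each mouse (points), with the mean and SD of each genotype beside them. All vertical axes span the same number of log2 units, each around the gene's own mean, and the 3 p27-/- points of Gad2, between 11.55 and 12.07, lie above all other Gad2 points.

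Among the receptor genes, Gabrb1, which encodes the beta 1 subunit of GABA-A receptors, was abundant and varied little. Gabrb1 (ENSMUSG00000029212, chromosome 5 from 71657921 to 72149572) had log2 values of 10.69, 10.57, 10.95 and 10.63 in WT samples. The p27-/- samples stood at 10.64, 10.60 and 10.43 and the p27-/-;Sox2+/- samples at 10.83, 10.97 and 10.91. Both mutant groups overlapped with WT, but every p27-/-;Sox2+/- sample was above every p27-/- sample. The WT mean was 10.71 ± 0.17 (SD, n = 4), the p27-/- mean 10.56 ± 0.11 and the p27-/-;Sox2+/- mean 10.90 ± 0.07 (SD, n = 3 each). The log2 difference from WT was -0.15 in p27-/- and 0.19 in p27-/-;Sox2+/- IL, each with a standard error of 0.10, and the difference between the mutants was 0.34 with a standard error of 0.11. Gabrb1 overlaps the 5' end of Gabra4, which is read in the other direction, and reads in the shared stretch cannot be assigned to either without strand.

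Gabbr1, which encodes the GABA-binding subunit of the GABA-B receptor (ENSMUSG00000024462, chromosome 17 from 37045966 to 37074305), had log2 values of 8.79, 9.16, 8.65 and 9.36 in WT samples. It stood at 8.94, 9.14 and 9.22 in p27-/- and at 9.32, 9.11 and 8.88 in p27-/-;Sox2+/- samples. The spread among WT mice, with an SD of 0.33, covered both mutant groups. The log2 difference from WT was 0.11 in p27-/- and 0.12 in p27-/-;Sox2+/- IL, each with a standard error of 0.16, and that between the mutants was 0.01 with a standard error of 0.17.

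Gabbr2, its partner subunit (ENSMUSG00000039809, chromosome 4 from 46662318 to 46991714), had log2 values of 6.28, 6.33, 6.76 and 6.42 in WT samples. In p27-/- samples the values were 7.04, 6.79 and 6.92, and in p27-/-;Sox2+/- samples 6.60, 6.76 and 6.55. All p27-/- samples were above all samples of the other genotypes although the closest values were 6.79 and 6.76, and the p27-/-;Sox2+/- samples overlapped with WT. The WT mean was 6.45 ± 0.22 (SD, n = 4), the p27-/- mean 6.92 ± 0.12 and the p27-/-;Sox2+/- mean 6.64 ± 0.11 (SD, n = 3 each). The log2 difference was 0.47 between p27-/- and WT, or 1.39-fold, 0.19 between p27-/-;Sox2+/- and WT, and -0.28 between the mutants, with standard errors of 0.13, 0.13 and 0.14. Without each sample in turn the first of these lay between 0.41 and 0.58. Thus p27-/- was the highest genotype for both Gad2 and Gabbr2. The means of the other genotypes stood in opposite order for these genes, but their samples overlapped. For Gabrb1 the p27-/- mean was the lowest, with samples that overlapped WT, and Gabbr1 showed no order beyond its spread.

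With an adjusted p-value under 0.05 as the threshold, 7.78% of the 17268 tested genes passed in p27-/- compared with WT, 3.16% higher and 4.62% lower, and 2 of the 4 tested genes of the set, Gad2 and Gabbr2, were among them. In p27-/-;Sox2+/- compared with WT, 2.71% of all tested genes passed, 0.828% higher and 1.88% lower, and the limma fit called 0 of the 4, as it did with unadjusted p-values at the same threshold. Between the mutants 0.145% passed, 0.0811% higher and 0.0637% lower in p27-/-;Sox2+/-, and 1 of the 4, Gad2, was among them. The set was chosen with these comparisons known, so its counts are set beside the shares of all genes without being read as evidence. The comparisons of the mutants with WT share the 4 WT samples, and those that involve p27-/- share its 3 samples.

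Levels of different genes were set side by side per exonic length, as the log2 normalised count per kb of exon. On this scale Gabrb1 was the highest of the set in WT IL, at 9.08 ± 0.17 (SD, n = 4), and 96.4% of the tested genes with a known length were lower. Gad2 followed at 8.40 ± 0.31, with 92.7% lower, then Gabbr1 at 6.03 ± 0.33, with 55.9% lower, and Gabbr2 at 3.90 ± 0.22, with 17.9% lower. Gad1 stood at -0.85 ± 0.28 and Slc32a1 at -1.01 ± 0.02, and these neighbours in the order lay closer together than the SD of Gad1. In p27-/- IL the level of Gad2 per kb, 9.21 ± 0.27 (SD, n = 3), was at or above that of Gabrb1, 8.93 ± 0.11, a gap about as large as the SD of Gad2. In p27-/-;Sox2+/- IL Gabrb1 was above Gad2 as in WT, at 9.27 ± 0.07 and 8.03 ± 0.39.

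Gabrb1 was 1 of a small group of GABA-A receptor subunits with high RNA levels. Of the other 18 subunits of GABA-A and GABA-rho receptors, 16 had a row in the table and 12 were tested, and Gabra6 and Gabrr3 were not analysed here. Of those reported here, Gabra2, which encodes the alpha 2 subunit, had the highest WT level per kb of exon, at 8.10 ± 0.27 (SD, n = 4), below Gabrb1. It was followed by Gabrg1 at 5.80 ± 0.15, Gabra4 at 5.68 ± 0.17, Gabre at 4.90 ± 0.16 and Gabra3 at 4.04 ± 0.23, with Gabrg1 and Gabra4 within their SD of each other. Gabra5 at 2.16 ± 0.08, Gabrq at 1.90 ± 0.13, Gabrg3 at 1.61 ± 0.22 and Gabrb2 at 0.01 ± 0.24 were low, and Gabrd, Gabrp, Gabrr1 and Gabrr2 were below the minimum for testing. Lengths came from an older annotation, matched by gene identifier, and values near the floor are drawn together, so that the order of the low subunits is only approximate.

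**Figure D2:**
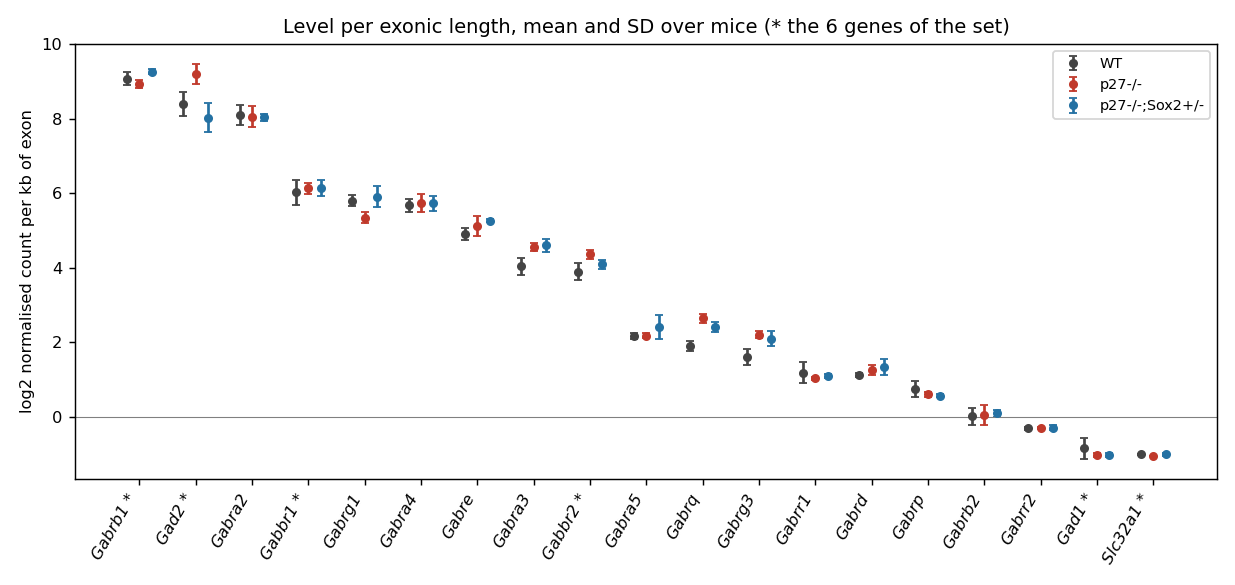
Log2 normalised count per kb of exon (vertical axis) of the 6 genes, marked with an asterisk, and of 13 other GABA-A and GABA-rho subunits, sorted by the WT mean. Points and bars are the mean and SD over 4 WT, 3 p27-/- and 3 p27-/-;Sox2+/- mice, and Gabrb1, Gad2 and Gabra2 stand above 8 in every genotype.

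Of the 12 tested subunits, 3 rose in p27-/- compared with WT and none fell. Gabrq, which encodes the theta subunit (ENSMUSG00000031344, chromosome X from 72825163 to 72842607), had log2 values of 4.21, 4.32, 4.25 and 4.5 in WT, 4.93, 5.13 and 5.10 in p27-/- and 4.69, 4.89 and 4.92 in p27-/-;Sox2+/- samples. All mutant samples were above all WT samples. Against WT, Gabrq RNA was higher by 0.73 on the log2 scale in p27-/- IL (standard error 0.11, limma adjusted p = 0.00196). In p27-/-;Sox2+/- IL it was higher by 0.51 (standard error 0.11, adjusted p = 0.0242). The latter passed with 3 genotypes in 1 fit, but not without p27-/-;Sox2+/- replicate 2 or 3, where the highest adjusted p-value was 0.125. Gabrg3, encoding gamma 3, had log2 values of 5.15, 5.50, 5.09 and 5.01 in WT and 5.69, 5.78 and 5.88 in p27-/- samples, a difference of 0.60 (standard error 0.14, adjusted p = 0.0206). Gabra3, encoding alpha 3 and lying near Gabrq on chromosome X, had values between 5.70 and 6.24 in WT and between 6.47 and 6.66 in p27-/- samples, a difference of 0.52 (standard error 0.14, adjusted p = 0.0412). In p27-/-;Sox2+/- IL the differences of Gabrg3 and Gabra3 from WT were 0.49 and 0.56 and did not pass, with adjusted p-values of 0.079 and 0.0512, and the differences between the mutants were -0.11 and 0.04, so that a loss of the change was not shown. The third X-linked subunit of this stretch, Gabre, differed from WT by 0.23 in p27-/- (adjusted p = 0.316) and by 0.37 in p27-/-;Sox2+/- IL (adjusted p = 0.157). Gabra2, Gabrg1, Gabra4 and Gabrb1 lie together on chromosome 5, and Gabrg1 stood between 7.90 and 8.26 in WT and between 7.47 and 7.74 in p27-/- samples, with a difference of -0.46 that did not pass (adjusted p = 0.0529).

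Among the 9 enzymes of GABA synthesis and breakdown other than the decarboxylases, 2 fell in p27-/- and none rose. Glul, the glutamine synthetase (ENSMUSG00000026473, chromosome 1 from 153899929 to 153909723), had log2 values of 10.46, 10.26, 10.67 and 10.43 in WT, 9.82, 9.92 and 9.5 in p27-/- and 10.29, 10.12 and 9.95 in p27-/-;Sox2+/- samples. Every p27-/- sample was below every other sample. The difference of p27-/- from WT was -0.71 (standard error 0.12, adjusted p = 0.00469), against -0.33 in p27-/-;Sox2+/- IL (adjusted p = 0.166). Maob, a monoamine oxidase that takes part in an alternative route from putrescine to GABA, was lower in p27-/- IL, with a difference of -0.52 (standard error 0.14, adjusted p = 0.0439), and differed by -0.49 in p27-/-;Sox2+/- IL (adjusted p = 0.0909). Abat, the GABA transaminase that breaks GABA down, lay between 9.39 and 9.73 in WT and between 9.07 and 9.41 in p27-/- samples, a difference of -0.33 that did not pass (adjusted p = 0.0688). Of 5 transporter genes of the plasma membrane, 4 were tested and the limma fit called 0 of them in p27-/- compared with WT, with 1 at an unadjusted p-value under 0.05. Slc6a11, encoding the GABA transporter GAT3, lay between 5.15 and 6.03 over the 10 samples. Every p27-/-;Sox2+/- sample was above every WT sample for Slc6a11, but the difference of 0.45 did not pass (limma adjusted p = 0.109). Slc6a11 does not stand for the group: it was the only 1 of the 4 tested transporters with a positive difference from WT in p27-/-;Sox2+/- IL. In p27-/- IL, 2 of the 4 had a positive difference. All 5 transporter genes lie on chromosome 6, as does Cdkn1b, between 13.6 and 43.2 Mb from it.

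The 15 tested genes of receptor clustering, trafficking and the chloride gradient included 1 that rose in both mutants. Hap1, which encodes a trafficking adaptor of GABA-A receptors and other cargo, had log2 values of 9.35, 9.32, 9.11 and 9.52 in WT, 9.69, 10.05 and 9.97 in p27-/- and 10.08, 9.95 and 9.55 in p27-/-;Sox2+/- samples. Its differences from WT were 0.58 (standard error 0.13, adjusted p = 0.0211) and 0.54 (standard error 0.13, adjusted p = 0.0494), and the latter passed in only 1 of the 10 fits without a sample, the fit without p27-/-;Sox2+/- replicate 3. Of the chloride transporters, Slc12a2, which brings chloride into cells, lay between 9.02 and 9.38, and Slc12a5, which extrudes it, between 8.39 and 9.34, with no difference past the threshold. Among 14 tested partners and effectors of the GABA-B receptor, 1 rose in p27-/-. Kctd12b, related to the auxiliary subunits of the receptor, had log2 values of 7.88, 7.47, 7.59 and 7.71 in WT, 8.25, 8.12 and 8.11 in p27-/- and 7.67, 7.78 and 8.0 in p27-/-;Sox2+/- samples. The difference between p27-/- and WT was 0.50 (standard error 0.12, adjusted p = 0.023), and every p27-/- sample was above all others. The potassium channel genes Kcnj3 and Kcnj6, through which GABA-B receptors act, lay between 8.48 and 9.05 and between 8.81 and 9.68, whereas Kcnj5 was near 0 on the log2 scale in every sample. Kcnj3 lay between 8.87 and 9.05 in p27-/-;Sox2+/- samples, above all others. Its difference of 0.39 from WT there did not pass (limma adjusted p = 0.0582).

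Of 11 transcription factor genes of GABAergic neurons with a row in the table, 8 were below the minimum for testing. Dlx1, Lhx6 and Gata3 were at or below 1.01 on the log2 scale in all samples. Sp8, a zinc finger factor of interneuron precursors, was low but ordered: its log2 values were 3.51, 3.68, 3.61 and 3.47 in WT, 4.19, 4.13 and 4.03 in p27-/- and 3.45, 3.55 and 3.56 in p27-/-;Sox2+/- samples. Every p27-/- sample was above all others. Sp8 differed by 0.55 between p27-/- and WT (standard error 0.08, adjusted p = 0.00221) and by -0.60 between the mutants (standard error 0.09, adjusted p = 0.02). The latter difference was the only 1 among the 57 other tested genes of the GABA lists that passed between the mutants.

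**Figure D3:**
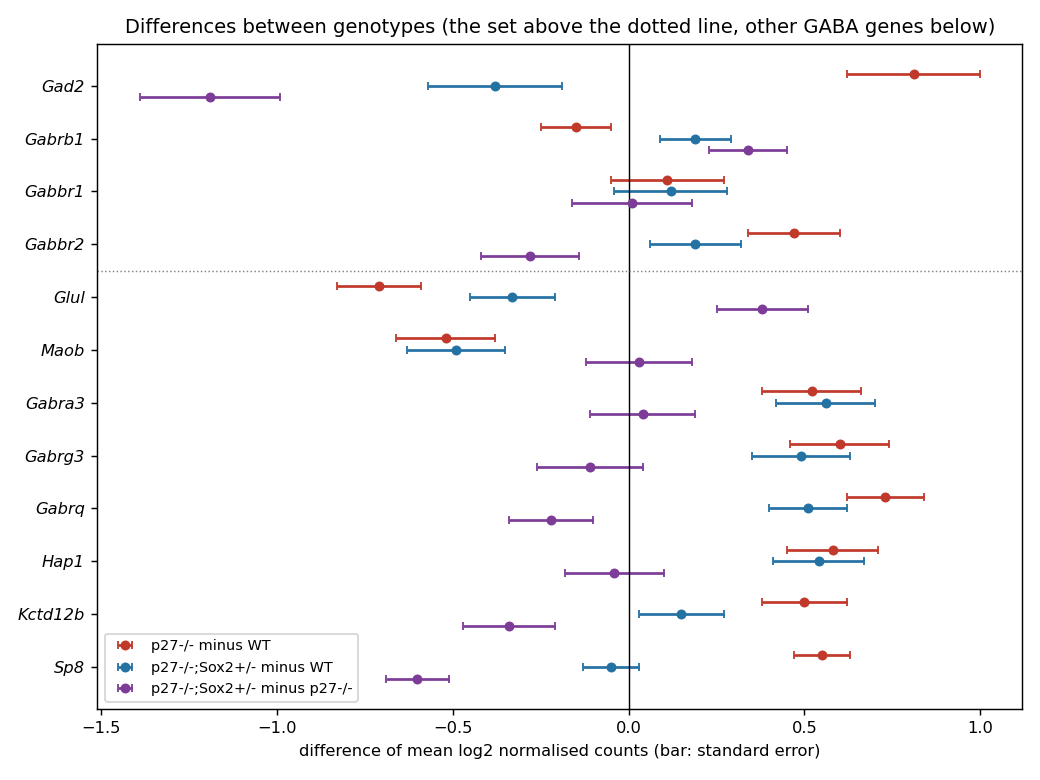
Differences of the mean log2 normalised counts between genotypes, with standard errors, for the 4 tested genes of the set (above the dotted line) and the 8 other GABA genes that passed the threshold in any comparison. Gad2 and Sp8 are above 0 in p27-/- minus WT, at 0.81 and 0.55, and below 0 in p27-/-;Sox2+/- minus p27-/-, at -1.19 and -0.60.

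Over all 57 of these other tested genes, 8 passed in p27-/- compared with WT, 6 higher and 2 lower, which is 14.0% against the 7.78% of all tested genes, and the median log2 difference was 0.02 against 0.01. In p27-/-;Sox2+/- compared with WT, 2 passed, both higher, which is 3.51% against 2.71%. Between the mutants 1 passed, 1.75% against 0.145%. Most of the pathway genes therefore did not pass, and the calls among them were few. Those of Gabrq, Glul and Sp8 in p27-/- compared with WT passed in all 10 fits that left out a sample. Without p27-/- replicate 3 the calls of Gabra3, Gabrg3, Hap1, Kctd12b and Maob were lost, leaving 3, and without p27-/- replicate 2 those of Gabra3, Gabrg3, Hap1 and Kctd12b. Gabra3, Kctd12b and Maob were lost without p27-/- replicate 1, Gabra3, Hap1 and Kctd12b without WT replicate 3, and Gabra3, Gabrg3 and Maob without WT replicate 4. Maob was lost also without WT replicate 2 or any p27-/-;Sox2+/- replicate, and Gabra3 without p27-/-;Sox2+/- replicate 2. The call of Sp8 between the mutants was lost without any 1 of the 6 mutant samples, with a highest adjusted p-value of 0.117.

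Marker lists named after cell types were measured beside these genes. The 8 tested neuronal markers, averaged in the same way, lay from -0.20 to 0.01 in WT, from 0.14 to 0.23 in p27-/- and from -0.09 to 0.02 in p27-/-;Sox2+/- samples. The p27-/- samples were thus above all others for this list, as for Gad2, Gabbr2, Sp8 and Kctd12b. How many of all tested genes separate the samples in this way was not counted, so no likeness is read from it. Of the 8, 2 rose in p27-/-: Elavl4, with a difference of 0.58 (adjusted p = 0.00177), and Rbfox3, with 0.51 (adjusted p = 0.0367). The other 6 did not pass. Among these, Map2 lay between 12.63 and 13.06 over the 10 samples, and 99.6% of the tested genes had a lower WT mean. Which cells held the RNA of the neuronal list was not tested. The melanotroph marker Pcsk2, which cuts POMC to its smaller peptides, was also higher in p27-/-, by 0.53 (adjusted p = 0.0352). Of the markers of single neuron types, those of dopamine neurons were low, with Slc6a3 at or below -1.34 and Th at or below 2.27 on the log2 scale in every sample. The genes that mark GABA neurons were split: Gad1 and Slc32a1 were low and Gad2 was abundant, as given above. The vesicular glutamate transporter genes were above the low genes and below Gad2: Slc17a7 lay between 6.06 and 6.78 over the 10 samples, and Slc17a6 between 4.59 and 6.1 in WT, 5.42 and 5.74 in p27-/- and 4.6 and 4.82 in p27-/-;Sox2+/- samples. Slc17a8 lay between 3.13 and 3.77. With the neuronal mean as a covariate, chosen after the data were seen, the difference of Gad2 between p27-/- and WT was 0.47 instead of 0.81 and that of Gabbr2 was 0.84 instead of 0.47, while Gabrb1 went from -0.15 to 0.20. Among the 8 other GABA genes called in this comparison, Glul then went from -0.71 to -0.16, Maob from -0.52 to -0.32, Gabrg3 from 0.60 to 0.05 and Gabra3 from 0.52 to -0.08, and none of the 8 passed, with 8 of the 57 other tested GABA genes at an unadjusted p-value under 0.05. Since this mean separates p27-/- from the other genotypes, it cannot be told apart from the genotype, and its part in the differences was not tested.

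**Figure D4:**
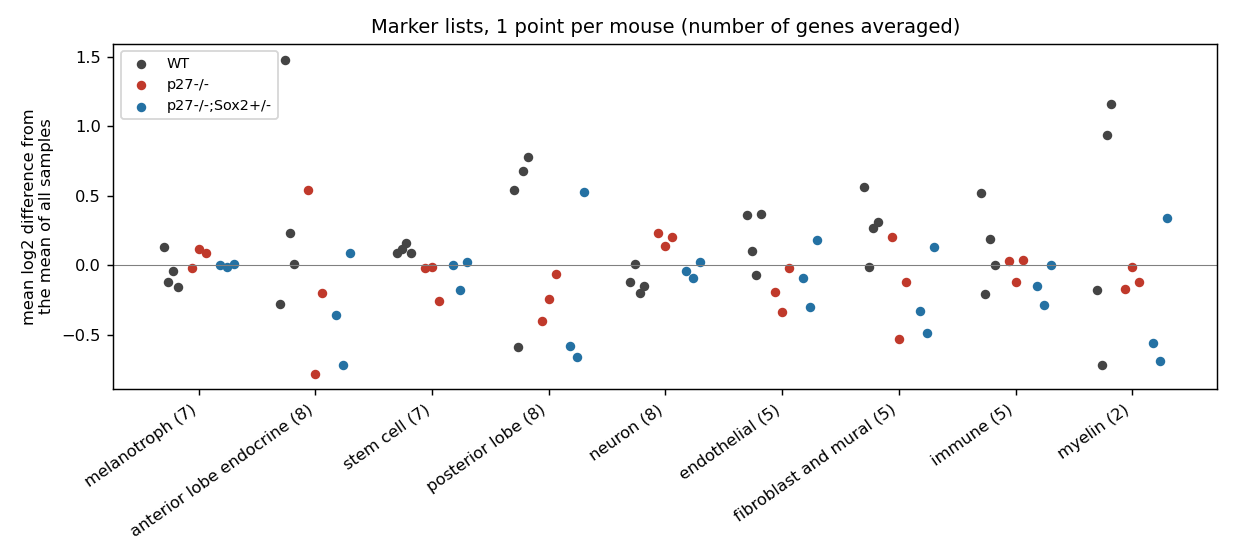
Mean of the tested genes of each marker list in every mouse, as the log2 difference from the mean of all samples (vertical axis), by genotype, with the number of genes averaged in parentheses. In the neuron list the 3 p27-/- points, between 0.14 and 0.23, are above the others, while posterior lobe, anterior lobe and myelin lists vary widely within a genotype.

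Markers of the posterior lobe, which adjoins the IL, ranged from -0.40 to -0.06 in p27-/- and from -0.66 to 0.53 in p27-/-;Sox2+/- samples, within the range of WT apart from p27-/-;Sox2+/- replicate 2. Adding their mean or that of the anterior lobe markers to the fit gave differences of Gad2 between p27-/- and WT of 0.74 and 0.80, and left the difference between the mutants at -1.19. The stem cell mean ranged from 0.09 to 0.16 in WT, from -0.26 to -0.01 in p27-/- and from -0.18 to 0.02 in p27-/-;Sox2+/- samples, and the melanotroph mean from -0.16 to 0.13, from -0.02 to 0.12 and from -0.01 to 0.01. The stem cell list includes Sox2, of which the p27-/-;Sox2+/- mice have 1 working copy and which melanotrophs also express. Within genotypes, over the 10 samples, Gad2 had a Pearson r of -0.72 with the stem cell mean and -0.52 with the myelin mean. Its r was 0.37 with the melanotroph mean, 0.23 with the neuronal mean and -0.19 with the posterior lobe mean. All of these points share their libraries, and the values are a description of 10 samples. In p27-/- compared with WT, 1 of 7 stem cell markers (Cdh1), 1 of 8 anterior lobe markers (Fshb), 1 of 5 endothelial markers (Kdr) and 1 of 5 fibroblast and mural markers (Lum) fell, and of 7 melanotroph markers Pcsk2 rose and Pcsk1 fell. By limma, 0 of 8 posterior lobe, 0 of 5 immune and 0 of 2 myelin markers passed, with 3, 0 and 0 at an unadjusted p-value under 0.05.

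The genes whose log2 values followed each of the 4 tested genes most closely over the 10 samples were found by Pearson's r among all tested genes with a symbol. For Gad2 they were P4ha1, Gm6166 and Pak3, with r of 0.93, 0.927 and 0.925, which fell to 0.76, 0.723 and 0.721 within genotypes. P4ha1 encodes a prolyl hydroxylase of collagen and Pak3 a kinase of the cytoskeleton. For Gabrb1 they were D930020B18Rik, Zfp467 and Ephx2, with r of 0.957, 0.951 and 0.945, and for Gabbr1 Zfp579, Prrt1 and Inha, with r of 0.96, 0.944 and 0.94. Slk, Mthfd2l and Ythdf2 followed Gabbr2, with r of 0.968, 0.935 and 0.935. No gene appeared for more than 1 of the 4. These are the highest of very many correlations over only 10 samples, and how high unrelated genes would reach was not tested. Among the 4 themselves, Gad2 and Gabrb1 had an r of -0.72 over all samples and of -0.27 within genotypes, and Gad2 and Gabbr2 had 0.45 and -0.22. The values within genotypes pool 10 samples centred on their genotype means. They are too imprecise to tell whether Gad2 and Gabbr2, both highest in p27-/-, vary together among mice of the same genotype.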

How the data were processed

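RNA of dissected IL was extracted with RNeasy Micro columns, amplified, and sequenced on a HiSeq4000. The authors aligned the reads with STAR 2.5.2a to GRCm38, estimated counts per Ensembl gene with RSEM 1.3.30 without regard to strand, normalised them with DESeq2 1.18.1 and deposited log2 values. The transformation is not named in the sources used here; the low values are shrunken as in a regularised log. Because these are not counts, no count test was run, and depth is unknown.

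The genotype in the sample labels gave the groups. The deposited log2 values were tested as they are with limma 3.58.1 in R 4.3.3 (lmFit, eBayes with a trend) in 1 fit of 3 genotypes, for genes with a mean of at least 10 on the linear scale (17268), with Benjamini-Hochberg adjustment over all of them and a threshold of 0.05, two-sided. The test was checked on simulated data. Named genes are the 6 genes of the set, every listed GABA gene past the threshold, receptor subunits by level, the 3 genes most like each tested member of the set, markers, Cdkn1b and Sox2. The tested genes of the set were part of the fit, but their p-values are not given and their calls are not read as evidence. Further genes of the lists were named after their values were seen (Abat, Slc6a11, Slc12a2, Slc12a5, Kcnj3, Kcnj5, Kcnj6, Dlx1, Lhx6, Gata3). Some listed genes are not reported here. The members and lists were chosen with earlier results of these data known. The alternatives were other filters, 2 groups in the fit, a constant prior variance, weights per sample, quantile normalization, centring on the median, a block for the replicate number, covariates (Xist and 3 marker means, the latter added after the data were seen), and each sample left out. Symbols and exonic lengths, the latter from the NCBIM37 annotation, were found for 14854 of the tested genes, or 86%. Positions and promoters are RefSeq's for GRCm38.p6. Python 3.11.15 with numpy 2.4.6, pandas 2.3.3 and matplotlib 3.10.9 was used. Libraries of 1 genotype came from different mice.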

Additional observations from a re-analysis of the deposited data

Results flagged for a closer look

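Of 25 measures tested in the 4 WT samples, 1 had a sample far from the others. For Sox2, WT replicate 3 was at 7.75 and the other 3 between 7.34 and 7.39, so that the gap took up 0.885 of the whole range, above the critical value for 4 samples. About 1 in 20 measures would pass this by chance. None of the 4 tested genes of the set passed it.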

How the results depend on the processing

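The number of mice limits the precision, and the depth behind each value is unknown. The log2 differences of the 4 tested genes of the set moved by less than the spread between replicates in all settings except the neuronal covariate, where Gabrb1 and Gabbr2 also moved between the mutants, to 0.09 and -0.55. Under that covariate Gad2, Gabrb1 and Gabbr2 in p27-/- compared with WT were 0.47, 0.20 and 0.84, and Gabra3 reversed to -0.08 (limma adjusted p = 1), while Glul, Maob and Gabrg3 came to -0.16, -0.32 and 0.05. The cause was not tested.

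The counts of calls moved more. In p27-/- compared with WT, the 1343 genes became 831 without a filter, 807 with 2 groups in the fit, 595 with the replicate block, 414 with the posterior lobe covariate, 3 with the neuronal covariate, and 403 to 1709 without a sample. The 8 GABA genes became 13 with array weights, 5 with the block, 4 and 0 with these covariates, and 3 to 10 without a sample (5 without WT replicate 4 or p27-/- replicate 2, 3 without p27-/- replicate 3). In p27-/-;Sox2+/- compared with WT, the 468 genes became 260 with 2 groups, 1240 with array weights, 209 with the block, 135 and 154 with the covariates, and 80 (without p27-/-;Sox2+/- replicate 2) to 658. The 2 GABA genes became 1 without a filter, 0 with 2 groups, 5 with array weights, 1 with the block, 0, 1 and 0 with the posterior lobe, anterior lobe and neuronal covariates, and 0 to 4 without a sample. Between the mutants, the 25 genes became 6 without a filter, 45 with 2 groups, 8 without the trend, 283 with array weights, 15 with quantile normalization, 2 with the block, 0 with the neuronal covariate, and 0 to 41 without a sample. The 1 GABA gene became 0 without a filter, with a mean of at least 50, without the trend, with the block or the neuronal covariate, 2 with array weights, and 0 to 1 without a sample. Where limma gave 0 of the GABA genes, 4 to 17 had an unadjusted p-value under 0.05, and where it gave 0 of all genes, 716 to 1030 had. The causes of these moves were not tested.

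Same-numbered samples of different genotypes had correlations of their deviations between -0.238 and 0.182, and differently numbered ones between -0.191 and 0.265. These values give no sign that the replicate numbers are a pairing, but they cannot exclude a shared litter or batch. The block gives only a hint from the data. No other pseudocount and no count test was run, since neither applies to the deposited log2 values.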
